A study of Homo sapiens with 6 samples.

Results

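The ribosomal protein genes of the cytosol and their paralogs were examined in the colorectal cancer line LoVo after treatment with DCC-2036. A gene was a member when its symbol was RPL or RPS followed by a number, with or without a letter suffix, or was RPLP0, RPLP1, RPLP2 or RPSA, and the S6 kinase genes were left out. Of the 19223 symbols in the table, 87 were members, 53 of the large and 34 of the small ribosomal subunit. The rule used their names and no measured value.

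RNA was measured by sequencing in 6 libraries, with 3 Control and 3 DCC-2036 libraries. LoVo is a single established line from a human colorectal adenocarcinoma, so all libraries share its genotype. DCC-2036, or rebastinib, is a tyrosine kinase inhibitor and was given at 2.5 μM, and Control cells are listed at 0 μM. The labels give 48 h of treatment, whereas a figure legend of the study gives 24 h. Nothing in the sources says that the libraries came from separate cultures, so the p-values measure the spread between these libraries, which may be technical. The members' median level differed among the DCC-2036 libraries and was highest in DCC-2036_3 and lowest in DCC-2036_1. Values are normalised signals per transcript, and sequencing depth is unknown. Of 10 colon epithelium markers, 5 (EPCAM, KRT8, KRT18, KRT20 and CDX2) were at 10 or above in every library. The other 5 (CDX1, VIL1, LGALS4, CEACAM5 and CDH17) were below 10 in every library, and CDX1 was listed at 0 throughout. The leukocyte markers summed to at most 50.1, the endothelial markers to at most 41.3 and the fibroblast markers to at most 553 in any library. The fibroblast sum was mostly COL1A1, with means of 376 in Control and 457 in DCC-2036. These lay above the means of the epithelial markers CDX2 (297 and 286) and KRT20 (53.1 and 23.4), and below those of EPCAM, KRT8 and KRT18. The epithelial markers summed to 79493 to 89170 in Control and to 121189 to 159440 in DCC-2036, led by KRT8, and their part in the results was not tested. In bulk RNA, fewer cells of a type and less RNA per cell cannot be told apart.

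Ribosomal proteins, together with ribosomal RNA, build the 2 subunits of the ribosome, and every growing cell makes them in large and matched amounts. Their mRNAs typically begin with a C followed by a run of pyrimidines, the 5′ terminal oligopyrimidine (TOP) tract, through which mTOR signalling controls their translation. Several have paralogs that encode closely related proteins. Free RPL5 and RPL11 can bind MDM2 and so link ribosome assembly to cell cycle control, and inherited loss of one copy of several members causes Diamond-Blackfan anaemia.

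Most parents had the tract exactly at the annotated start of the gene, and most paralogs with a listed start lacked it there. Each sequence below, read from RefSeq promoters on GRCh38.p14, runs 5′ to 3′ on the gene's strand over 10 bases before and 15 bases from the annotated start of exon 1. Capitals mark the tract, defined as a C at the start followed by 4 or more C or T. Pairs of parent and paralog stand together, and RPL39 and RPS26 are shown as the member with the highest change and the non-paralog with the lowest change.
RPL22 at chr1:6199581-6199605 on the minus strand: cgctcacctcCCTTTCTaactccgc
RPL22L1 at chr3:170870181-170870205 on the minus strand: ccgtagcttcCTCTCTgctctcgcg
RPL26 at chr17:8383179-8383203 on the minus strand: gcgtgtagttCTCTTCCCTTTTgcg
RPL26L1 at chr5:172958719-172958743 on the plus strand: tccaggggtcggcgaacgaaacgcg
RPL26L1, second annotated start, at chr5:172958870-172958894 on the plus strand: ggcggcggccacaaacccgcaggca
RPL36A at chrX:101391001-101391025 on the plus strand: ctcgcggtttCTTTCTTTCCgcgcc
RPL36AL at chr14:49620612-49620636 on the minus strand: tcttccctttcctgttaggcgagag
RPS27 at chr1:153990752-153990776 on the plus strand: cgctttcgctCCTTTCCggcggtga
RPS27L at chr15:63157463-63157487 on the minus strand: gatgccgagcgcagatcgcttgcag
RPL7L1 at chr6:42879606-42879630 on the plus strand: gtgcggcgccgtagctaggagcgga
RPL39 at chrX:119791616-119791640 on the minus strand: ccgccagcttCCCTCCTCTTCCTTT
RPS26 at chr12:56041908-56041932 on the plus strand: acataacctcgattttcttccgcca

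The tract stood at the annotated start of 48 of the 70 members in the promoter table, or 68.6% (95% Clopper-Pearson interval 56.4 to 79.1%), against 1404 of all 27305 genes in it, or 5.14%. When the tract could begin anywhere within 10 bases of the start, 85.7% of the members and 38.4% of all genes had one. RPL39 had a tract of 19 bases, RPL26 one of 12 and RPL36A one of 10. RPL22L1 was the paralog with a tract, of 6 bases, whereas RPL7L1, RPL26L1, RPL36AL, RPS27L and RPL10L had none at the annotated start. RPL36AL did have a tract of 12 bases within 10 bases of its start, and RPL7L1, RPL26L1, RPS27L and RPL10L did not. The parent RPL3 had a run of 4 bases at its start, too short to count. RPL3L and RPL39L had no listed start. No match says only that these letters do not stand at the annotated start.

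Of the 87 members, 82 passed the filter on low values, which kept genes that reached 10 in 3 or more libraries, and these 82 were tested. The 5 others were RPL10L, listed at 0 in all 6 libraries, RPL39L, which reached at most 6.72, RPL3L, which lay between 1.09 and 14.5, and the 2 Y-linked copies of RPS4X. Among the tested non-paralog members, mean Control values ran from 2552 for RPS29 to 55670 for RPS2. Whether the values were corrected for transcript length is not given in the sources used here.

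The question was how the ribosomal protein mRNAs of LoVo cells differed between DCC-2036 and Control libraries. Most lay slightly above Control and a few moved the other way. Across the 82 tested members, 76 had a positive log2 fold change on the log2(value + 1) scale, with a median of 0.39, or 1.31-fold, and quartiles of 0.27 and 0.55. The median over all 12725 tested genes was -0.09. The members also kept together, since the SD of their log2 fold changes was 0.27, against 0.96 over all tested genes and 0.71 over the 3911 other tested genes with a mean of at least 1000.

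At an adjusted p under 0.01 in limma, 8 members were called higher, which is 9.76% of those tested against 19.2% of all genes, and 1 was called lower, 1.22% against 22.7%. In either direction 9 members, or 11.0%, were called against 41.9% of all genes. A further 31 members had an adjusted p between 0.01 and 0.05. The unadjusted limma p was under 0.05 for 44 of the 82 members and for 8477 of the 12725 tested genes. By the values themselves, all 3 DCC-2036 libraries lay above all 3 Control libraries for 47 members, 57.3% against 32.9% of all genes, and below them for 3 members, 3.66% against 38.1%. The other 32 members overlapped between the groups. Among those 3911 genes, which are closer to the members in level, the median log2 fold change was 0.24, 31.7% were called higher and 52.4% lay above Control without overlap. The count of members called higher was 33 without DCC-2036_1. It was 0 without any 1 of Control_1, Control_2, Control_3 or DCC-2036_2, where 24, 35, 37 and 32 members kept an unadjusted limma p under 0.05. When the libraries were scaled to equal totals, the median was 0.20 for the members and -0.28 for all genes. With equal totals 67 of 82 members were positive, and 4 were called higher. The share of all genes called is not given for the fits with a library left out or with equal totals.

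**Figure D1:**
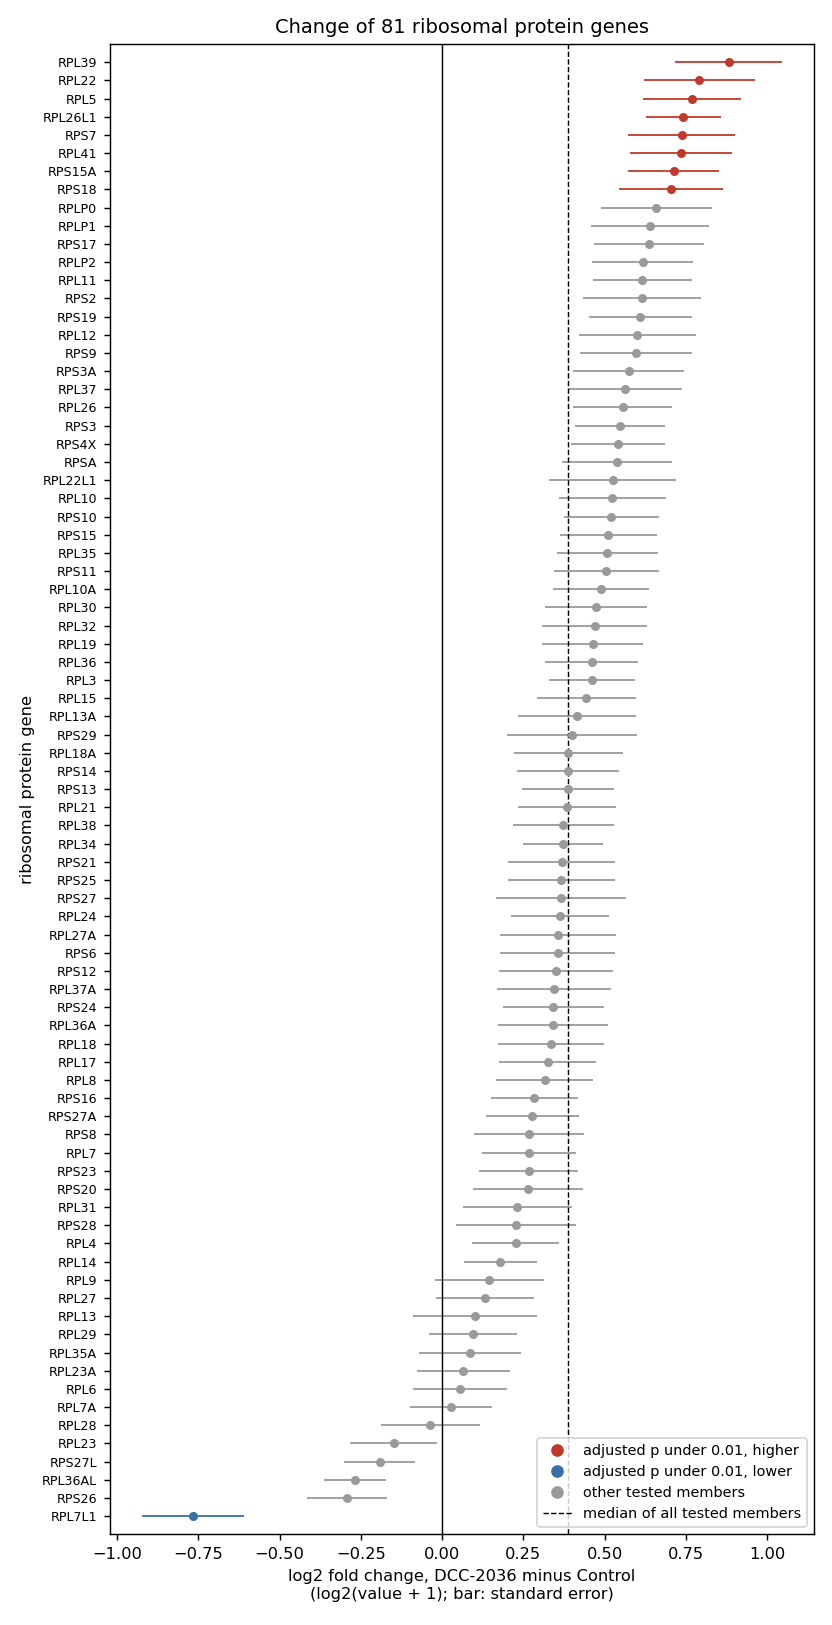
Log2 fold change (DCC-2036 minus Control, on log2(value + 1), x axis) of 81 of the 82 tested members (y axis), with bars for the standard error and n = 3 libraries per group. Red points are the 8 members called higher, the blue point is RPL7L1, the 1 called lower, grey points were not called, and the dashed line is the median of all 82, 0.39.

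The size of the shift differed among the DCC-2036 libraries, and nearly all members shared it. Relative to each gene's Control mean, the median deviation of the members on the log2 scale was 0.15 in DCC-2036_1, 0.39 in DCC-2036_2 and 0.67 in DCC-2036_3. The Control libraries stood at -0.14, 0.06 and 0.09. DCC-2036_3 was the highest DCC-2036 library for 81 of 82 members, the exception being RPL7L1, against 42.2% of all tested genes. Control_1 was the lowest Control library for 81 of 82, with RPL13 as the exception, against 37.9% of all genes. With 1 transcript kept per symbol, the members' summed value made up 6.19, 6.81 and 6.85% of the summed kept values of the Control libraries, against 6.90, 7.75 and 8.86% with DCC-2036, or 6.62% ± 0.373 against 7.84% ± 0.981 (SD, n = 3 each). The groups did not overlap in this share, but DCC-2036_1 exceeded the highest Control library by little. The difference of 1.22 percentage points was 0.706 without DCC-2036_3 and 1.68 without DCC-2036_1.

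**Figure D2:**
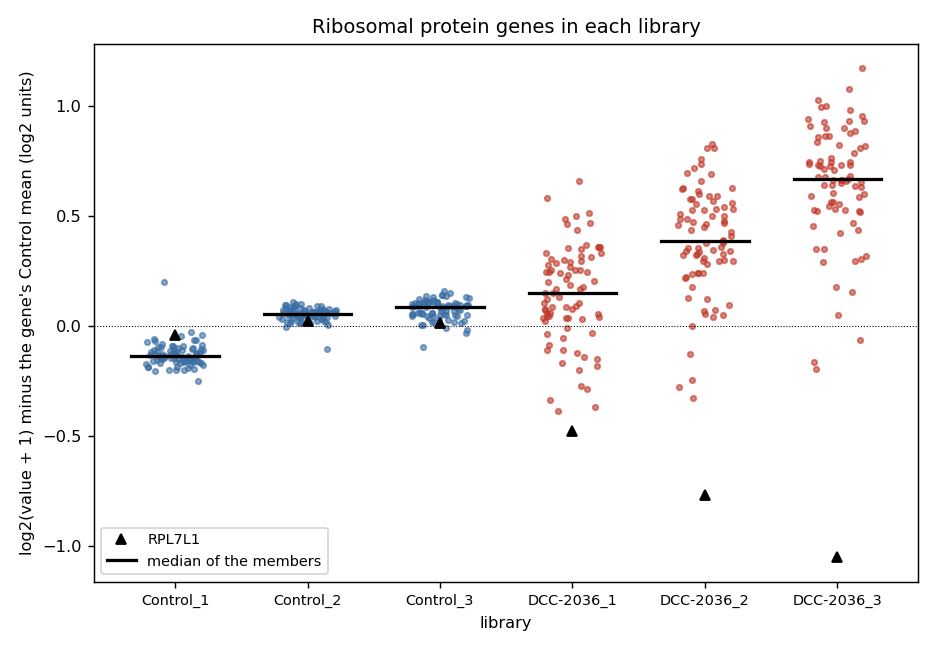
Deviation of each tested member from its own Control mean (y axis, log2 units) in each of the 6 libraries (x axis), with 1 point per gene, a bar at the median and RPL7L1 as a triangle. The member medians step from 0.15 in DCC-2036_1 to 0.67 in DCC-2036_3, whereas RPL7L1 moves the opposite way.

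The libraries were also set to the median of the members. The median SD between libraries was 0.12 in Control and 0.26 in DCC-2036 on the log2 scale before this step, and 0.038 and 0.037 after it. Centring on the members lowers their spread by construction. On this scale, which was chosen after seeing the data and is centred on the members by construction, 34 members lay above Control without overlap, 26 below, and 22 overlapped. Over all tested genes the same comparison gave 16% above and 50.2% below. In limma after this scaling, 27.9% of all genes were called in either direction, and of the members 0 were called higher and 1 lower, with 5 higher and 11 lower at an unadjusted p under 0.05. The 1 called lower was RPS26, with a log2 fold change of -0.71 and an adjusted p of 0.00756.

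Among the proteins at the exit of the peptide tunnel, where the new chain leaves the large subunit, all 8 listed members had positive values, with a median of 0.49, and 2 of the 8 (25%) were called higher, against 19.2% of all genes. RPL39, a very small protein that lines the tunnel, was at 2621, 3123 and 3231 in Control and at 4715, 5221 and 6720 in DCC-2036. The groups were well apart, and RPL39 rose by 0.88 on the log2 scale (SE 0.166, adjusted p = 0.00457), the highest value of any member in this fit. After removal of the GC and length trends it was 0.40, below RPLP0 (0.78), RPS2 (0.77), RPS15A (0.76) and RPL22 (0.75). RPL22, which binds RNA and lies near the exit, was at 4217, 4718 and 4696 in Control and at 6271, 8066 and 9585 in DCC-2036. It rose by 0.79 (SE 0.170, adjusted p = 0.00762) and again did not overlap. The lowest of the list was RPL23A, which helps dock the signal recognition particle, with Control values of 10377, 11523 and 11764 against 9975, 11763 and 13712 with the drug. The groups overlapped, and its log2 fold change of 0.06 (adjusted p = 0.709) turned to -0.05 without DCC-2036_3 and to -0.13 with equal totals.

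RPL5 and RPL11, which form a particle with 5S ribosomal RNA before joining the large subunit, were both above Control in all DCC-2036 libraries. RPL5 was at 14189, 15889 and 15269 in Control and at 21591, 25607 and 30773 in DCC-2036, and rose by 0.77 (SE 0.150, adjusted p = 0.00533). RPL11 was at 8625, 9248 and 9112 in Control and at 11625, 13418 and 16790 in DCC-2036, with a log2 fold change of 0.62 and an adjusted p of 0.0128, just short of the limit. MDM2, the ligase that RPL5 and RPL11 can bind, had a log2 fold change of 0.23 (adjusted p = 0.0786). CDKN1A, which halts the cell cycle, had 0.60 (adjusted p = 0.0142), so neither passed the limit in limma.

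The stalk recruits translation factors to the large subunit, and its 4 members had nearly equal changes. Their log2 fold changes ran only from 0.60 for RPL12, the stalk's base, to 0.66 for RPLP0, its core. RPLP0 was at 44205, 50448 and 52284 in Control and at 62768, 77278 and 94675 in DCC-2036. All 4 lay above Control without overlap, as did 32.9% of all genes and 52.4% of the 3911 genes of higher level. In limma 0 of 4 passed the limit, with an adjusted p from 0.0140 for RPLP2 to 0.0256 for RPL12. All 4 had an unadjusted p under 0.05, as did 8477 of the 12725 tested genes. RPL41, the smallest ribosomal protein, belongs to none of these lists. It was at 10211, 11674 and 11724 in Control and at 15460, 18637 and 22353 in DCC-2036, and rose by 0.73 (SE 0.158, adjusted p = 0.00762).

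In the small subunit, 3 of 32 tested members were called higher and 0 lower, and the median log2 fold change of 0.39 was close to the 0.38 of the large subunit, where 5 of 50 were called higher and 1 lower. Of all genes 19.2% were called higher and 22.7% lower. The difference between the subunits was not tested. RPS7 was at 8237, 10118 and 10053 in Control and at 13203, 15536 and 18908 in DCC-2036, and rose by 0.74 (adjusted p = 0.00902). RPS15A was at 6772, 7749 and 7742 against 10492, 12023 and 14160 and rose by 0.71 (adjusted p = 0.00561). RPS18, at the head of the subunit, was at 14399, 16242 and 16430 against 21227, 25280 and 31013 and rose by 0.70 (adjusted p = 0.00924). For all 3 genes the lowest DCC-2036 library lay clearly above the highest Control library.

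The members around the mRNA entry and the decoding site had log2 fold changes from 0.27 for RPS23 to 0.62 for RPS2, with 0 of 5 called in limma (4 at an unadjusted p under 0.05) and 4 of 5 above Control without overlap, where 19.2% of all genes were called higher and 32.9% lay above without overlap. RPS2, at the mRNA entry, was at 49268, 58686 and 59057 in Control and at 68000, 85461 and 105615 in DCC-2036 (adjusted p = 0.0248). RPS23, which reaches the decoding centre, was at 9620, 11035 and 11352 against 10923, 12584 and 15243 and overlapped (adjusted p = 0.168). The members at the mRNA exit had a median of 0.39 and RPS26 as their lowest, at -0.29, with 0 of 5 called in limma and 3 at an unadjusted p under 0.05. Of all 12725 tested genes, 8477 had an unadjusted p under 0.05.

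RPS26, which contacts the mRNA just upstream of the start codon, was, with RPS27L, one of the 2 small subunit members with a negative value. It was at 5667, 6425 and 6983 in Control and at 4838, 5053 and 5652 in DCC-2036, so that every DCC-2036 library lay below every Control library, though by a narrow margin. Its log2 fold change of -0.29 (SE 0.123) did not pass (adjusted p = 0.0778). Relative to the member median of the same library, RPS26 was at -0.85, -0.84 and -0.73 in Control and at -1.35, -1.53 and -1.60 in DCC-2036, and after that scaling it was called lower. It was also called lower with equal totals (-0.48, adjusted p = 0.00824) and with trends for GC content and transcript length taken out (-0.54, adjusted p = 0.00284), and in 16 of 19 alternatives it was not called, among them median-of-ratios scaling (-0.21, adjusted p = 0.210). Its annotated start is one of those without the tract. Reads of RPS26 may be shared with near-identical pseudogene copies, and how such reads were assigned is not given in the sources used here.

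RPL23 and RPL28, of the large subunit, showed the same relative pattern. RPL23 was at 8695, 9548 and 9544 in Control and at 7166, 8465 and 9569 in DCC-2036, and its groups overlapped (-0.15, adjusted p = 0.358). Relative to the member median it was at -0.23, -0.27 and -0.28 in Control and at -0.78, -0.78 and -0.85 in DCC-2036, a gap many times the spread within either group. RPL28 lay at 0.08, 0.08 and 0.17 in Control and at -0.33, -0.28 and -0.34 in DCC-2036 on the relative scale, and its unscaled log2 fold change was -0.04 (adjusted p = 0.843). In limma after scaling to the member median, the adjusted p was 0.0111 for RPL23 and 0.0235 for RPL28, both short of the limit. RPL39 stood at the other end, with -1.96, -1.88 and -1.85 in Control against -1.39, -1.48 and -1.35 in DCC-2036 (adjusted p = 0.0219 after that scaling).

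**Figure D3:**
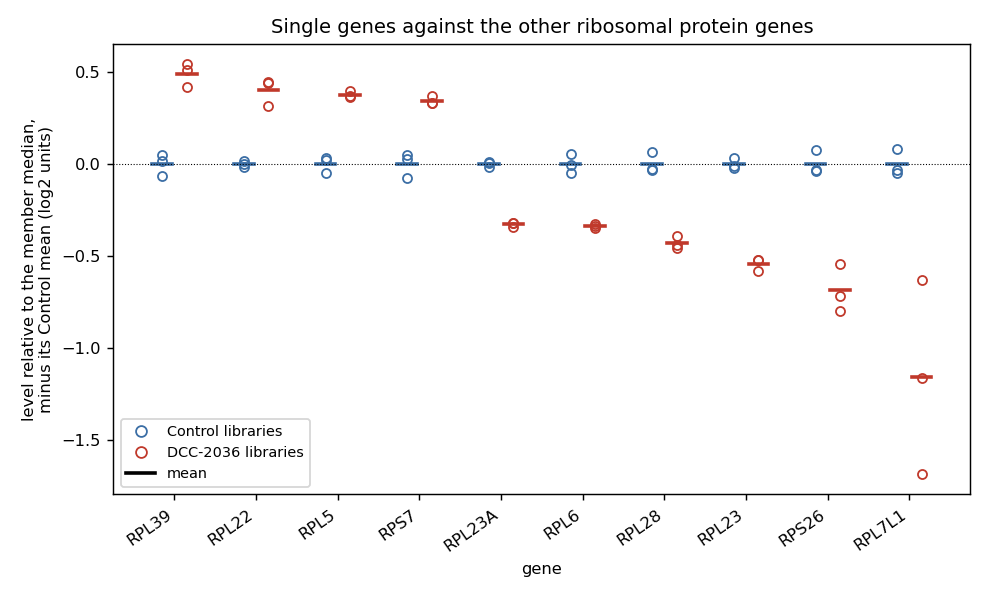
Level of 10 members relative to the median of all tested members in the same library, minus the gene's Control mean (y axis, log2 units), with open circles for the 3 Control (blue) and 3 DCC-2036 (red) libraries and bars for the means. The genes were picked from both ends of the ranking to show the separation, with RPL39, RPL22, RPL5 and RPS7 above and the other 6 below Control in all 3 DCC-2036 libraries.

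Of the 10 listed genes whose loss causes Diamond-Blackfan anaemia, 2 (RPS7 and RPL5) were called higher and 0 lower, and the median log2 fold change was 0.58. The 20% called higher is near the 19.2% of all tested genes. They ran from RPS26 at -0.29 to RPL5 at 0.77, and 8 of the 10 lay above Control without overlap, against 57.3% of all tested members and 32.9% of all genes.

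The paralogs went both ways. Of 8 listed paralogs 5 were tested, and their median log2 fold change was -0.19, against 0.49 for the 8 parents, of which 2 (25%) were called higher and 0 lower. Among the paralogs 1 of 5 was called higher and 1 lower, 20% each, close to the 19.2 and 22.7% of all genes. Paralog and parent were compared within each library as the log2 ratio of their values, so that a scaling of the library cancels. Of the 5 pairs compared, 4 had a lower ratio in all DCC-2036 libraries than in any Control library, and 1 overlapped. How often other pairs of genes keep apart in this way was not counted. Relative to the members' median, 50.2% of all tested genes lay below Control without overlap and 16% above. The count of 4 is therefore not read as particular to paralogs. With 3 against 3 libraries the two-sided exact permutation test cannot go below p = 0.1, so no pair could pass 0.05.

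RPL7L1, a nuclear relative of RPL7 that acts in assembly of the large subunit, was at 4586, 4794 and 4766 in Control and at 3381, 2764 and 2273 in DCC-2036. It fell by 0.77 on the log2 scale (SE 0.158, adjusted p = 0.00641 in limma) and was the one member that was lowest in DCC-2036_3. The call was lost without any 1 of Control_1, Control_2, Control_3 or DCC-2036_2 (-0.76 to -0.79, adjusted p from 0.0227 to 0.0263), without a filter (-0.77, 0.0148) and after scaling to the member median (-1.18, 0.0132), and the change was of like size or larger. With the replicate number as a block the adjusted p was 0.0189. RPL7, its parent, was at 23894, 25592 and 24458 against 25186, 29172 and 35473 and overlapped (0.27, adjusted p = 0.149). The RPL7L1 value thus went from 19.1% ± 0.380 of the RPL7 value in Control to 9.77% ± 3.52 in DCC-2036 (SD, n = 3 each), a difference of the log2 ratio of -1.03 (SE 0.309, exact permutation p = 0.1, adjusted over the 5 pairs 0.125). In the DCC-2036 libraries the percentages were 13.4, 9.48 and 6.41.

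RPL22L1 is the paralog whose pre-mRNA RPL22 is known to bind and repress. RPL22L1 was at 2078, 2449 and 2375 in Control and at 2609, 3217 and 4285 in DCC-2036, above Control throughout, with a log2 fold change of 0.52 (SE 0.194) that did not pass (adjusted p = 0.0527). RPL22L1 went from 49.3, 51.9 and 50.6% of RPL22 in Control to 41.6, 39.9 and 44.7% in DCC-2036. This is a difference of the log2 ratio of -0.27 (SE 0.0528, exact permutation p = 0.1, adjusted 0.125). The percentages of the groups did not overlap, and both genes lay above Control in every DCC-2036 library.

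RPL36AL, a close copy of RPL36A, was at 1628, 1650 and 1693 in Control and at 1313, 1368 and 1448 in DCC-2036. All of its DCC-2036 values were below all Control values, with a log2 fold change of -0.27 (adjusted p = 0.0446 in limma) that did not pass the limit of 0.01. It passed with equal totals (-0.46, adjusted p = 0.00457) and with GC content and length taken out (-0.55, adjusted p = 0.00529), and not with median-of-ratios scaling (-0.19, adjusted p = 0.162). RPL36A was at 3746, 4213 and 4169 against 4208, 4970 and 6401 and overlapped (0.34, adjusted p = 0.122). RPL36AL was 41.1% ± 2.20 of RPL36A in Control and 27.1% ± 4.30 in DCC-2036 (SD, n = 3 each), a difference of the log2 ratio of -0.61 (SE 0.142, exact permutation p = 0.1, adjusted 0.125). RPL36A shares sequence with a readthrough transcript into HNRNPH2, and how shared reads were divided is not known.

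RPS27L, a paralog of RPS27, was at 460, 516 and 472 in Control and at 399, 407 and 462 in DCC-2036. Its groups overlapped through DCC-2036_3 (-0.19, adjusted p = 0.166). RPS27 was at 5091, 5945 and 6149 against 5675, 7410 and 9477 and overlapped as well (0.37, adjusted p = 0.154). The ratio did not overlap, with 8.46% ± 0.703 of RPS27 in Control and 5.80% ± 1.11 in DCC-2036, a difference of -0.56 on the log2 scale (SE 0.171, exact permutation p = 0.1, adjusted 0.125). With a trend for GC content and transcript length taken out, this difference was -0.10 and the groups overlapped (exact permutation p = 0.3).

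RPL26L1, the close copy of RPL26, was the paralog that was called higher. It was at 786, 882 and 851 in Control and at 1256, 1470 and 1498 in DCC-2036, and rose by 0.74 (SE 0.115, adjusted p = 0.00229), the lowest adjusted p of any member. RPL26 was at 10115, 11508 and 10858 against 13427, 15589 and 19161, without overlap (0.56, adjusted p = 0.0190). RPL26L1 was 7.77, 7.66 and 7.84% of RPL26 in Control, against 9.35, 9.43 and 7.82% with DCC-2036. The ratio overlapped through DCC-2036_3, with a difference of 0.19 on the log2 scale (SE 0.0886, exact permutation p = 0.2, adjusted 0.2). With GC content and length taken out, the difference was 0.26 and the groups did not overlap (exact permutation p = 0.1).

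**Figure D4:**
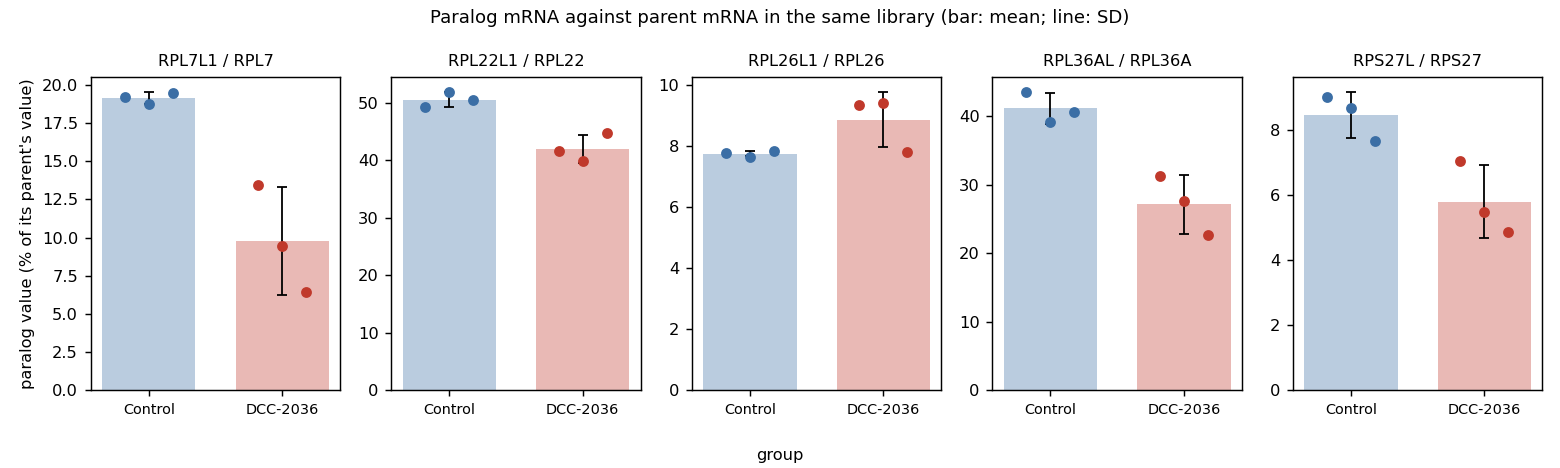
Value of each paralog as a percent of its parent's value in the same library (y axis) for the 5 pairs with both genes tested, in Control and DCC-2036 (x axis), with points for the 3 libraries, bars for the mean and lines for the SD. RPL7L1, RPL22L1, RPL36AL and RPS27L were lower in every DCC-2036 library, and RPL26L1 overlapped.

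These percentages follow the values as deposited, so they show changes between the groups and not how the level of a paralog compares with that of its parent. For the remaining 3 pairs the parents were RPL3 (log2 fold change 0.46, adjusted p = 0.0225), RPL10 (0.52, adjusted p = 0.0313) and RPL39, and their paralogs were at or near 0.

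Other genes of the same system were compared with the members. FAU, which encodes a small subunit protein fused to a ubiquitin-like peptide, had a log2 fold change of 0.50 (adjusted p = 0.0243). RACK1, a scaffold on the small subunit, had -0.01 (adjusted p = 0.952). Of 15 other TOP mRNAs, mostly translation factors, 7 were called higher (46.7%) and 1 lower, and the median log2 fold change was 0.55. Of all genes 19.2% were called higher, and of the 3911 genes of higher level 31.7%. EIF3H, a subunit of the initiation factor eIF3, was at 6128, 6578 and 6358 in Control and at 10152, 12232 and 15128 in DCC-2036, and rose by 0.96 (adjusted p = 0.00291). HNRNPA1, a splicing factor, was at 26718, 28424 and 28778 against 11791, 11547 and 12060 and fell by 1.24 (adjusted p = 0.000277). Within the members, those with a tract at the annotated start had a median log2 fold change of 0.38 (47 genes, 4 called higher and 0 lower) and those without one 0.36 (20 genes, 2 higher and 1 lower). Values were positive for 46 of the 47 with a tract and 16 of the 20 without, and the difference was not tested.

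The chaperones that escort single ribosomal proteins to the assembling ribosome split into opposite directions, with 4 of 11 called higher and 3 lower, where 19.2 and 22.7% of all genes were called. GRWD1, which carries RPL3, was at 2941, 3193 and 3515 in Control and at 1982, 1696 and 1142 in DCC-2036 and fell by 1.03 (adjusted p = 0.00656). RRS1 fell by 0.93 (adjusted p = 0.000898), whereas RPF2, its partner in loading the 5S particle, rose by 0.75 (adjusted p = 0.00175). PDCD2, which escorts RPS2, fell by 0.60 (adjusted p = 0.00239), and LTV1, which acts in small subunit assembly, rose by 0.86 (adjusted p = 0.00455). The mitochondrial ribosomal proteins, which build the separate ribosome of that organelle, had a median log2 fold change of -0.08 over 78 genes, with 9 called higher (11.5%) and 19 lower, near the all-gene median of -0.09, and ran from MRPL12 at -2.04 to MRPL33 at 0.99. Their SD of 0.71 was well above the 0.27 of the cytosolic members.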

How the data were processed

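RNA of LoVo cells was sequenced in 3 Control and 3 DCC-2036 libraries and grouped by sample title. The authors deposited a normalized signal for each of 45006 transcripts and library. The values are fractional, and the aligner, genome build and scaling are not given in the sources used here. Values above 0 and below 0.5 occur in the DCC-2036 columns (2061 to 2354 transcripts) and in 0 Control transcripts. The deposited log2 fold change, p-value and q-value columns were not used. There were 0 columns of other samples. Depth is unknown, so no counting interval is given.

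Each symbol was represented by its transcript of highest mean, and genes reaching 10 in 3 or more libraries were tested. limma 3.58.1 in R 4.3.3 compared the groups on log2(value + 1), two-sided, with Benjamini-Hochberg adjustment over all 12725 genes and a limit of 0.01. The script was tested on simulated data. Fold changes of low genes are understated on this scale. Ratios of paralog to parent were compared by an exact permutation test in scipy 1.17.1. The named genes are all paralogs and parents, the 5 highest and 5 lowest log2 fold changes, and the extremes of each role list (some items are not reported here), and RPL41, RPS15A, RPS18, RPL28, RPLP2 and RPL6, MRPL12, MRPL33 and genes of the other lists were named after their values were seen. The members and lists were chosen with earlier results of these data known. Promoter starts came from RefSeq on GRCh38.p14, and lengths and GC content from GENCODE 29, which covered 96.6% of tested genes.

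Alternatives were equal totals, median-of-ratios and upper-quartile scaling, 2 other filters, a pseudocount of 0.1, a replicate block, a limma trend, summed or averaged transcripts, GC and length, other limits, and leaving out each library. Scaling to the members' median was added after seeing the data. How reads shared with pseudogenes or near-identical copies were assigned is not known, so single members with such copies are uncertain.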

Additional observations from a re-analysis of the deposited data

How the results depend on the processing

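Depth is unknown, each group has 3 libraries, and the median log2 fold change of the members (0.39) stayed positive under every alternative except scaling to their own median (-0.031). Leaving out 1 library gave medians from 0.26 to 0.52. The number of members called was less stable. The count called higher, 8 at first, was 4 with equal totals, 1 without a filter, 29 with a limma trend and 38 at an adjusted p limit of 0.05. With GC content and length removed it was 23 of the 79 members tested there. It was 0 after scaling to the members' median and 0 when a log2 fold change of 1 or more in size was also required. In these 2 settings 5 and 42 had an unadjusted limma p under 0.05. Leaving out 1 library gave 0 to 33. The count called lower, 1 at first, was 3 with equal totals, 0 without a filter, 2 at the limit of 0.05 and 0 with the fold limit. With GC content and length removed it was 3 of 79, and leaving out 1 library gave 0 to 1. Of all genes, 19.2% were called higher and 22.7% lower in the first fit. These shares are not given for the other fits, so their counts have no background. The cause of these moves was not tested, beyond the fewer libraries in the latter fits. With the replicate number as a block, 2 were called higher and 0 lower (limma). At an unadjusted p under 0.05, 52 members were higher with the block, against 42 without it. Over all tested genes the correlations of same-numbered libraries were 0.08, -0.04 and -0.003, so the numbers did not pair the samples there. Among the members, Control_1 was the lowest Control library and DCC-2036_1 the lowest DCC-2036 library for 81 of 82 each. Why fewer members were called with the block was not tested. The share of members with a tract was 85.7% within 10 bases of the start. Of 27 members followed through the alternatives, RPL28 not among them, 22 kept their direction under all alternatives. RPL23A turned to -0.13 with equal totals and -0.35 after scaling to the members' median, and lay between -0.049 and 0.18 when 1 library was left out. RPL36A (-0.076), RPL7 (-0.15), RPS23 (-0.15) and RPS27 (-0.052) turned after scaling to the members' median, and RPS27 also with GC content and length removed (-0.093). Equal totals moved the median of all genes by -0.19, scaling to the members' median by -0.41, and GC content and length by 0.12. All 5 paralog ratios kept their direction in every alternative run on them. With GC content and length removed, however, the groups overlapped for the RPS27L ratio and no longer overlapped for the RPL26L1 ratio.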

Other observations

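Several members had more than 1 transcript in the table. For the 41 members with 2 or more, all transcripts of a symbol had log2 fold changes of the same sign, and the median range within a symbol was 0.01. The range was above 0.1 for 4 members, namely RPL13 (0.28), RPL15 (0.28), RPL36A (0.19) and RPL28 (0.14). For RPL15 the transcripts ran from 0.20 to 0.47, and for RPL13 from 0.10 to 0.38.

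Transcripts that read through from a member gene into its neighbour were kept apart from the members. RPS10-NUDT3 had a log2 fold change of 0.60 (adjusted p = 0.0137 in limma), RPL17-C18orf32 one of 0.33 (adjusted p = 0.0935) and RPL36A-HNRNPH2 one of 0.32 (adjusted p = 0.0932). None of the 3 passed the limit of 0.01, and 1 had an unadjusted p under 0.05. RPS19BP1, which encodes a protein that binds RPS19 and is not a ribosomal protein, was at 1423, 1618 and 1513 in Control and at 908, 851 and 703 in DCC-2036, and fell by 0.89 (adjusted p = 0.00186).

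Across the tested members, the log2 fold change and the log2 mean level had a Pearson r of 0.31 over 82 genes, and the log2 fold change and GC content one of 0.14 over 79 genes. These are descriptions across genes that share the same 6 libraries, and genes are not independent replicates.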
